A study of Homo sapiens with 4 samples.

Results

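The genes described here code for 31 proteins that make, process or export small nuclear RNAs (snRNAs). They comprise 14 Integrator subunits, INTS1 to INTS14, and the 5 subunits of the snRNA-activating protein complex (SNAPc). The others are the little elongation complex with 2 DNA-binding activators and the single-stranded DNA binding proteins NABP1 and NABP2. Factors that bind the cap, export the transcript and trim its end complete the list. The genes were taken by name from the 51714 Ensembl genes of the deposited files, with current symbols in place of older ones (INTS11 for CPSF3L, for example). All 31 were found and all 31 passed the filter on low counts.

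The RNA came from Raji, an established human B cell line of Burkitt lymphoma origin that is positive for Epstein-Barr virus. The cells were transfected with a vector for HA-tagged, α-amanitin-resistant RPB1, which is the largest RNA polymerase II subunit. In the R1810A cells (2 libraries) this subunit carried an arginine-to-alanine change that removes a methylation site of the C-terminal domain, and in the WT cells (2 libraries) it carried the wild-type arginine. Both groups were selected with G418 and then for 10 days with α-amanitin, which blocks the cells' own polymerase, and both were polyclonal batches. Ribosomal RNA was removed from total RNA before sequencing, and the comparison asks whether loss of the methylation site changes gene expression. Whether both libraries of a group stem from separate cultures is not stated, so the p-values rest on a spread between libraries that could be technical.

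Most snRNA genes are read by RNA polymerase II without a poly(A) tail. SNAPc binds a proximal element upstream of the gene, activators such as POU2F1 and ZNF143 bind a distal one, and the Integrator complex, which travels on the C-terminal domain of the polymerase, cuts the new transcript at its 3′ end. The capped precursor is bound by the cap-binding complex and PHAX for export, and matures in the cytoplasm before its return to the nucleus.

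Each library held between 2081636 and 2991959 reads summed over genes. All 7 B cell markers examined had at least 1 RPKM in every library, whereas the T cell, epithelial and erythroid lists summed to at most 0.253 RPKM. The monocyte list, with FCGR3A at 0 in every library and CD14 at or near 0, summed to 25.96 and 16.1 RPKM in R1810A and 22.4 and 16.2 RPKM in WT, most of it from CSF1R (24.5 and 15.2 RPKM in R1810A, 21.0 and 14.1 RPKM in WT). The rest was nearly all LYZ, with 1.48 and 0.799 RPKM in R1810A and 1.29 and 2.07 RPKM in WT.

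None of the 31 genes passed an adjusted p of 0.05 between R1810A and WT, with 0 higher and 0 lower. The test was edgeR's quasi-likelihood test with Benjamini-Hochberg adjustment over 10674 genes, of which 0.347% were called higher and 0.00937% lower. At an unadjusted p under 0.05, 2 members were higher (NABP1 and SNAPC4) and 1 lower (NABP2). That is 6.45% and 3.23% of the members, against 4.94% and 3.06% of all genes tested. DESeq2 and limma-voom also called 0 members, among 41 and 25 genes called over all genes tested. They had 1 and 3 members under the unadjusted limit. The shares of all genes tested under that limit were not taken for these tools, so these counts have no background beside them. The median log2 fold change was 0.013 over the members and -0.0046 over all genes tested. The fold change of 28 members (90.3%) was within 0.5 of 0 on the log2 scale, against 91.5% of all genes tested. RNA was measured in bulk, so a shift in every cell and a shift in some of the cells of a polyclonal batch cannot be told apart.

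The data set bounds on each difference as well, which rest on the same spread between libraries that could be technical. The 95% interval of the log2 fold change lay between -1 and 1 for 29 of 31 members (93.5%), against 82.5% of all genes tested. For these 29 members a change of 2-fold was outside it, though for INTS4 only just, with a lower bound of -0.998. The exceptions were SNAPC1 (-1.17 to 0.036), with the fewest reads of any member, and ZC3H8 (-0.061 to 1.32), with the widest spread between libraries. These bounds hold for the edgeR fit, and intervals from DESeq2 were not taken. For INTS4 DESeq2 gave the same log2 fold change of -0.46 with a larger unadjusted p, 0.282 against 0.089 with edgeR. In TMM-scaled CPM (counts relative to library size) the R1810A libraries both lay above the WT libraries in 8 members and below them in 8. This was 25.8% each way, against 19.8% and 19.5% of all genes tested. The balance depended on the scaling. With TMM 18 members had fold changes above 0 and 13 below. With the deposited total reads as library size these were 10 and 21, and the median gene tested stood at -0.13.

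**Figure D1:**
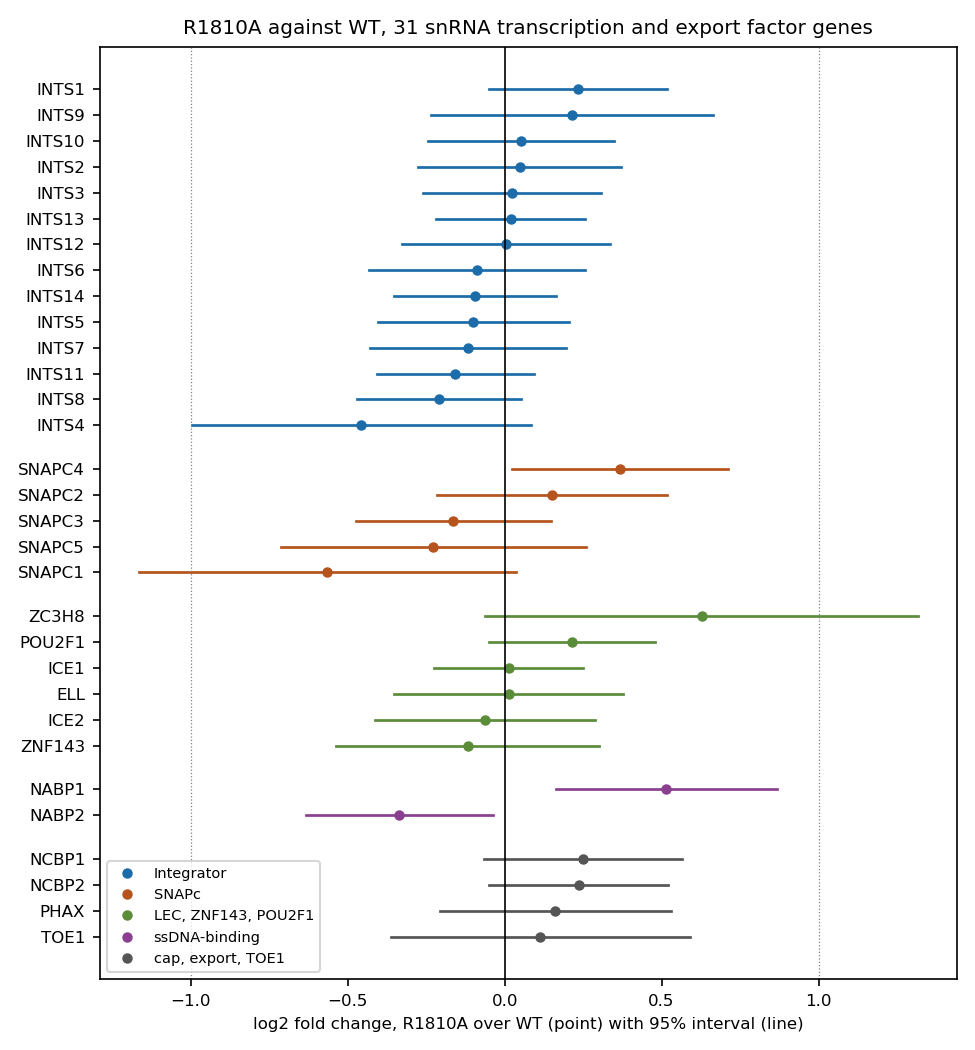
Log2 fold change of R1810A over WT for each of the 31 genes (points) with its 95% interval from the edgeR fit (lines), grouped by complex, dotted lines at -1 and 1. The intervals of NABP1, SNAPC4 and NABP2 lie to one side of 0, and those of SNAPC1 and ZC3H8 reach past a dotted line.

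Levels between genes were compared per length, with the deposited RPKM. It uses the deposited gene lengths, and the lengths of the transcripts present in these cells were not measured. The mean over the 4 libraries ran from 2.33 RPKM for INTS6 to 37.2 RPKM for INTS13, a 15.97-fold range. The median member stood at 7.003 RPKM and the median of all genes tested at 6.56 RPKM, and 17 members lay above that of all genes. The fitted difference between R1810A and WT was at most 1.55-fold upward, for ZC3H8, and SNAPC1 was lowest at 0.676 of its WT level.

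**Figure D2:**
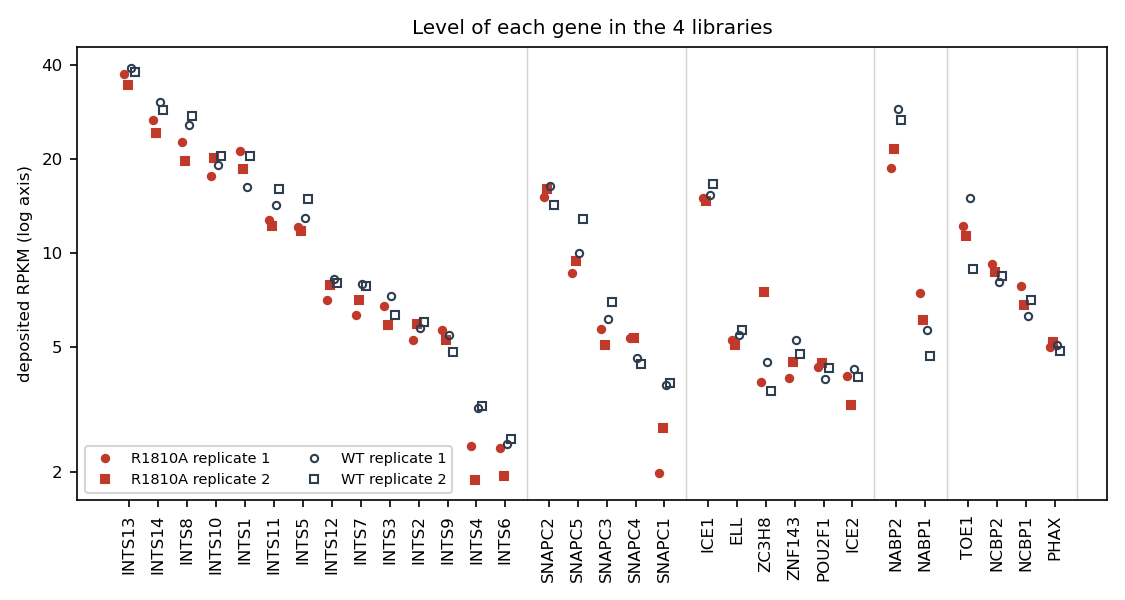
Deposited RPKM (log axis) of each gene in the R1810A libraries (filled red) and the WT libraries (open dark), replicate 1 as circles and replicate 2 as squares, ordered by level within each complex. INTS13 is highest and INTS6 lowest of Integrator, and NABP2 lies above NABP1 in every library.

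With TMM scaling the 14 Integrator members showed no common direction: 7 of their log2 fold changes were above 0 and 7 below. The median was -0.042, and 0 passed even an unadjusted p under 0.05. Both R1810A libraries lay below both WT libraries in 5 subunits (35.7%) and above them in 2 (14.3%). The shares of all genes tested were 19.5% and 19.8%. With the deposited total reads as library size, 2 fold changes were above 0 and 12 below, and the median gene tested stood at -0.13. Without WT replicate 2, or without either R1810A library, 5 were above 0 and 9 below. INTS11, the endonuclease that cuts the snRNA precursor, had 405 and 399 reads in R1810A and 460 and 686 reads in WT. Scaled to library size the libraries stood at 194 and 192 CPM in R1810A and at 202 and 228 CPM in WT, with both R1810A libraries below both WT libraries. The log2 fold change was -0.16 (SE 0.11, 95% interval -0.41 to 0.093, edgeR adjusted p = 0.752). Its size rested on the WT libraries: it came to -0.24 with WT replicate 1 left out and to -0.064 with WT replicate 2 left out. INTS9, its catalytically inactive partner, had 63 and 60 reads in R1810A and 62 and 72 reads in WT, with both R1810A libraries higher once scaled (log2 fold change 0.21, SE 0.20, edgeR adjusted p = 0.811). INTS4, which holds these 2 proteins together, had the lowest fold change of the complex. It had 35 and 28 reads in R1810A and 47 and 63 reads in WT, or 15.1 ± 2.34 CPM in R1810A and 20.8 ± 0.267 CPM in WT (SD, n = 2 each, as for all means here), with no overlap between the groups (log2 fold change -0.46, SE 0.25, 95% interval -0.998 to 0.082, edgeR adjusted p = 0.662). Fold changes of the 3 subunits of the cleavage module lay on both sides of 0. The subunits also differed in level, with means of 13.8 RPKM for INTS11, 5.31 RPKM for INTS9 and 2.69 RPKM for INTS4.

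The backbone of Integrator is built on INTS1, its largest subunit. INTS1 had the highest fold change of the complex, with 821 and 737 reads in R1810A and 640 and 1065 reads in WT. In CPM the libraries stood at 394 and 355 in R1810A and at 280.4 and 355 in WT, so that the higher WT library and the lower R1810A library were level to 3 digits (log2 fold change 0.23, SE 0.13, edgeR adjusted p = 0.672). The value depended on the WT libraries, at 0.076 without WT replicate 1 and 0.41 without WT replicate 2. INTS2 and INTS7, which bind INTS1, stood at log2 fold changes of 0.048 (SE 0.15) and -0.12 (SE 0.14). INTS12, a small subunit with a PHD finger, stood at 57.2 ± 5.56 CPM in R1810A and 57.05 ± 1.12 CPM in WT.

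INTS5, INTS6 and INTS8 join protein phosphatase 2A to the complex, which removes phosphates from the C-terminal domain. All 3 had fold changes below 0, as did 50.6% of all genes tested. They lay between -0.21 for INTS8 and -0.088 for INTS6, and none passed. INTS5 stood at 0.0092 without WT replicate 2, and INTS6 at 0.026 without R1810A replicate 2. INTS8 stood at 139 ± 10.6 CPM in R1810A and 161 ± 8.01 CPM in WT, without overlap (edgeR adjusted p = 0.676). INTS6 had 119 and 100 reads in R1810A and 125 and 171 reads in WT, the lowest mean RPKM of all 31 genes. The phosphatase subunits themselves, which are in the list of further pathway genes, lay close to 0: PPP2R1A, the scaffold, at 0.073 and PPP2CA, the catalytic subunit, at -0.055 on the log2 scale.

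Of the remaining module, the members INTS10, INTS13 and INTS14 had log2 fold changes of 0.053 (SE 0.14), 0.020 (SE 0.11) and -0.094 (SE 0.12). INTS15, an Integrator subunit that is not among the members, is in the list of further pathway genes. It stood at -0.16 (SE 0.12, edgeR adjusted p = 0.781), with both R1810A libraries lower. INTS13 was the highest of all 31 genes per length, with 37.3 and 34.4 RPKM in R1810A and 39.1 and 37.9 RPKM in WT. The deposited RPKM is scaled by a total read number under which the median gene tested shifted by -0.13 on the log2 scale. With TMM scaling INTS13 stood at 208 ± 7.34 CPM in R1810A and 205 ± 4.36 CPM in WT, and the groups overlapped.

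SNAPc had 2 positive and 3 negative fold changes, with a median of -0.16 on the log2 scale. SNAPC4, the largest subunit, which contacts the DNA through Myb-type repeats, had 108 and 111 reads in R1810A and 95 and 120 reads in WT. This was 52.6 ± 1.14 CPM in R1810A and 40.8 ± 1.19 CPM in WT. Both R1810A libraries were higher, and the fold change of 0.37 (SE 0.16, 95% interval 0.024 to 0.71) missed the threshold (edgeR adjusted p = 0.594). SNAPC1, a core subunit that binds SNAPC4, lay on the other side of 0 and had the lowest fold change of all 31 genes, with 21 and 30 reads in R1810A and 41 and 55 reads in WT. It stood at 12.3 ± 3.08 CPM in R1810A and 18.1 ± 0.243 CPM in WT, with no overlap (log2 fold change -0.57, SE 0.27, edgeR adjusted p = 0.645). Leaving out R1810A replicate 2 gave -0.85 on the log2 scale, and leaving out R1810A replicate 1 gave -0.33. SNAPC3, the other core subunit, stood at -0.16 (SE 0.14), and the accessory subunits SNAPC2 and SNAPC5 at 0.15 (SE 0.17) and -0.23 (SE 0.22). With WT replicate 2 left out these were nearer to 0, at -0.066 for SNAPC3, 0.045 for SNAPC2 and -0.030 for SNAPC5, and with WT replicate 1 left out further from it, at -0.25 for SNAPC3, 0.25 for SNAPC2 and -0.38 for SNAPC5. Per length SNAPC2 was the highest of the complex, at 15.6 ± 0.596 RPKM in R1810A and 15.3 ± 1.54 RPKM in WT, and SNAPC1 the lowest, with 1.98 and 2.75 RPKM in R1810A and 3.79 and 3.86 RPKM in WT.

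Among the promoters of 25 members searched, that of SNAPC3 alone held the core of the ZNF143 motif, searched as CTACANTTC on both strands, and it is shown for that reason. Promoters were taken from RefSeq (GRCh38.p14, from 250 bases before to 50 bases after a gene's start). INTS5, INTS8, INTS9, INTS10, SNAPC4 and NCBP1 were not matched there and not searched. The motif was found in 1.38% of all 35116 promoters. The SNAPC3 promoter, chr9:15422626-15422925 on the plus strand, is shown with the match in capitals. The motif reads on the minus strand, and the first capital as printed lies 130 bases before the start.
SNAPC3: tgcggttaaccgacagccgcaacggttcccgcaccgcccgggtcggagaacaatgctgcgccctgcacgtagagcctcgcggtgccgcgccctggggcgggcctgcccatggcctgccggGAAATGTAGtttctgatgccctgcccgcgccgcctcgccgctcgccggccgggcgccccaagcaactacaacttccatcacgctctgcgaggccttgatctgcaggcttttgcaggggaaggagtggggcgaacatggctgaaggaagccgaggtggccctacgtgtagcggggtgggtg
No binding was measured, and SNAPC3 had 154 and 141 reads in R1810A and 169 and 253 reads in WT (70.8 ± 4.26 CPM in R1810A, 79.1 ± 7.19 CPM in WT). ZNF143 itself, a zinc finger activator, had 62 and 72 reads in R1810A and 84 and 100 reads in WT. Its log2 fold change was -0.12 (SE 0.19, edgeR adjusted p = 0.902), and the groups overlapped.

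POU2F1, also called Oct-1, binds the octamer ATGCAAAT in the distal element of snRNA genes. It had 267 and 282 reads in R1810A and 248 and 355 reads in WT. It stood at 132 ± 5.39 CPM in R1810A and 113 ± 6.73 CPM in WT, with both R1810A libraries higher (log2 fold change 0.21, SE 0.12, edgeR adjusted p = 0.672). Among the promoters searched the octamer was found in 1, a second start of POU2F1 itself, against 1.77% of all promoters. That promoter, chr1:167328820-167329119 on the plus strand, is shown with the octamer in capitals. The octamer reads on the minus strand, and the first capital as printed lies 179 bases before the start.
POU2F1: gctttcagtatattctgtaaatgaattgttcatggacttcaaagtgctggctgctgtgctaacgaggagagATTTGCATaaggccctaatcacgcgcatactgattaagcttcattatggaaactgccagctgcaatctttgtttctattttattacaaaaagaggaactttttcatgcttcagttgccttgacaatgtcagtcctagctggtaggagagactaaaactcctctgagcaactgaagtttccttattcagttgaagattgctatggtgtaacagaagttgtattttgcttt
The RNA counts are per gene and do not separate the starts of POU2F1.

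The little elongation complex, which drives elongation at snRNA genes, had fold changes on both sides of 0. Its scaffold ICE1 had 521 and 526 reads in R1810A and 544 and 780 reads in WT, or 249.9 and 253 CPM in R1810A and 238 and 259.7 CPM in WT. It had the narrowest interval of the 31 genes (log2 fold change 0.013, 95% interval -0.22 to 0.25). ICE2 and the elongation factor ELL stood at -0.062 (SE 0.16) and 0.012 (SE 0.17). ZC3H8, a zinc finger subunit, had the highest fold change of all 31 genes, with 38 and 76 reads in R1810A and 45 and 48 reads in WT. R1810A replicate 2 alone was high, at 36.6 CPM against 18.2 CPM in R1810A replicate 1 and 19.7 and 16.0 CPM in WT. The log2 fold change of 0.63 (SE 0.31, edgeR adjusted p = 0.654) was 0.036 without that library and 1.04 without R1810A replicate 1. Its coefficient of variation in R1810A, 47.3%, was the largest of any member in either group.

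NABP1 and NABP2 are paralogous single-stranded DNA binding proteins, and either one joins INTS3 and INIP in a complex of the DNA damage response. They were the members furthest from 0 relative to their error, in opposite directions. NABP1 had 170 and 143 reads in R1810A and 132 and 144 reads in WT, or 81.5 and 68.8 CPM in R1810A and 57.8 and 47.9 CPM in WT. Both R1810A libraries were higher, with a log2 fold change of 0.51 (SE 0.16, 95% interval 0.16 to 0.87) that did not pass (edgeR adjusted p = 0.373). NABP2 had 167 and 197 reads in R1810A and 263 and 318 reads in WT, or 87.4 ± 10.4 CPM in R1810A and 111 ± 6.63 CPM in WT. Both R1810A libraries were lower, with a log2 fold change of -0.34 (SE 0.14, 95% interval -0.63 to -0.037, edgeR adjusted p = 0.568). Neither changed sign under any of the 10 alternatives, where NABP1 ran from 0.38 to 0.65 and NABP2 from -0.47 to -0.22. These alternatives reuse the same 4 libraries, and ZC3H8, whose value rested on 1 library, kept its sign under all 10 too. With DESeq2 the unadjusted p was 0.042 for NABP1 and 0.114 for NABP2. NABP2 was the higher of the pair per length in every library, at deposited lengths of 2218 bases for NABP2 and 5672 bases for NABP1. In reads alone R1810A replicate 1 had 167 for NABP2 and 170 for NABP1. The ratio of NABP2 to NABP1 RPKM, computed after their values were seen and not tested, was 2.51 and 3.52 in R1810A and 5.10 and 5.65 in WT.

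The promoters of the pair are shown as the regions upstream of the genes with the smallest p-values of the members. Neither held the octamer or the ZNF143 motif searched. The NABP1 window, chr2:191677886-191678185 on the plus strand, was 73.0% G and C, and the NABP2 window, chr12:56224092-56224391 on the plus strand, 63.7%.
NABP1: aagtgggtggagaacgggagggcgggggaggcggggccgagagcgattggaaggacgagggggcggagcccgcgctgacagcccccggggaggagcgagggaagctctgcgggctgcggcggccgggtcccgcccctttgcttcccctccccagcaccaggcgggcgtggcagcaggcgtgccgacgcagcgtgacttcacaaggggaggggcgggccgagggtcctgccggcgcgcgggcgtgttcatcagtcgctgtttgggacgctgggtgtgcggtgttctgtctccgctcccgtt
NABP2: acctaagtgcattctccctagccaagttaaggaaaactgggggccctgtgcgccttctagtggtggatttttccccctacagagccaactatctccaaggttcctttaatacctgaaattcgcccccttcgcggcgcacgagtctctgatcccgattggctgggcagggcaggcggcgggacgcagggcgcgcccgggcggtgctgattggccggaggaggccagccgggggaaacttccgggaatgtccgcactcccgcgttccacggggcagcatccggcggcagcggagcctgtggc

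Of the partners of the pair, INTS3, which is also an Integrator subunit, had 264 and 237 reads in R1810A and 290 and 332 reads in WT, or 120.3 ± 8.90 CPM in R1810A and 119 ± 11.7 CPM in WT, with overlap (log2 fold change 0.022, SE 0.13). INIP, the small remaining subunit, is in the list of further pathway genes. It had 44 and 43 reads in R1810A and 24 and 35 reads in WT, or 20.9 ± 0.292 CPM in R1810A and 11.1 ± 0.803 CPM in WT. Both R1810A libraries were higher, and the log2 fold change of 0.90 (SE 0.25) did not pass (edgeR adjusted p = 0.272).

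**Figure D3:**
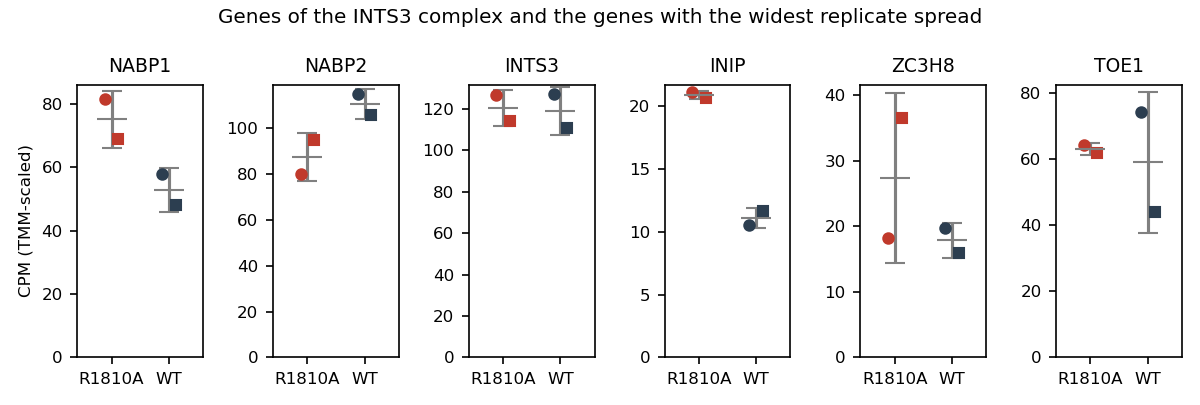
TMM-scaled CPM in R1810A (red) and WT (dark) of NABP1, NABP2, INTS3 and INIP, and of ZC3H8 and TOE1, replicate 1 as circles and replicate 2 as squares, with mean and SD (n = 2) as grey bars. NABP1 and INIP lie higher in R1810A and NABP2 lower without overlap, INTS3 overlaps, R1810A replicate 2 stands apart in ZC3H8 (36.6 CPM), and the WT libraries of TOE1 (74.1 and 43.9 CPM) lie on either side of the R1810A ones.

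The cap-binding and export genes all had fold changes above 0, as did 49.4% of all genes tested, and none passed even an unadjusted p under 0.05. NCBP2, the subunit that holds the cap, had 189 and 184 reads in R1810A and 169 and 234 reads in WT, or 90.6 and 88.5 CPM in R1810A and 74.1 and 77.9 CPM in WT (log2 fold change 0.24, SE 0.13, edgeR adjusted p = 0.672). NCBP1, its large partner, stood at 79.5 ± 6.27 CPM in R1810A and 66.6 ± 5.60 CPM in WT (log2 fold change 0.25, SE 0.14, edgeR adjusted p = 0.677). PHAX, the adaptor that hands the capped snRNA to the exporter, stood at 43.2 ± 2.14 CPM in R1810A and 38.7 ± 1.05 CPM in WT. In TMM-scaled CPM the R1810A libraries of these 3 genes, but not of TOE1, were the higher ones without overlap. This is 75% of the 4 genes, against 19.8% of all genes tested. In the deposited RPKM PHAX and NCBP1 overlapped and NCBP2 did not. PHAX had 5.00 and 5.20 RPKM in R1810A and 5.07 and 4.87 RPKM in WT. NCBP1 had 7.85 and 6.81 RPKM in R1810A and 6.29 and 7.07 RPKM in WT. With total reads as library size the log2 fold changes were 0.039 for PHAX, 0.13 for NCBP1, 0.11 for NCBP2 and -0.0082 for TOE1. TOE1, an exonuclease that trims snRNA 3′ ends, had 134 and 128 reads in R1810A and 169 and 132 reads in WT, with the WT libraries at 74.1 and 43.9 CPM on either side of both R1810A libraries. Its log2 fold change of 0.11 (SE 0.22) hung on these WT libraries: leaving out WT replicate 1 gave 0.52, and leaving out WT replicate 2 gave -0.24. Of its annotated exon bases 20.1% overlap MUTYH on the opposite strand, which had 46 and 50 reads in R1810A and 35 and 80 reads in WT. The use of strand in counting is not given in the sources used here, so reads from the shared bases cannot be told apart.

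Such overlaps with other genes touched 15 of the 31 members in the GENCODE 29 annotation. They covered 20.7% of the exon bases of INTS8 (with CCNE2), 21.7% of INTS12 (with GSTCD and ARHGEF38), 21.3% of SNAPC1, 23.2% of SNAPC5 and 23.5% of TOE1, and under 10% of the other 10. Copies that could share reads were looked for by name. INTS4P1, NCBP2L and SNAPC5P1 had 0 reads in every library. The pseudogene ICE2P1 had 6 and 6 reads in R1810A and 8 and 5 reads in WT, and ICE2P2 13 and 11 reads in R1810A and 7 and 14 reads in WT. The INTS6 paralogue INTS6L had 74 and 59 reads in R1810A and 62 and 59 reads in WT, and the pseudogene INTS6P1 22 and 13 reads in R1810A and 14 and 25 reads in WT.

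Of 35 further genes of the pathway (Integrator and phosphatase partners, general factors of snRNA promoters, 3′ end and Cajal body factors, export and import), 34 passed the filter and 0 passed the adjusted threshold in either direction with edgeR, DESeq2 or limma-voom. With edgeR 2 were higher and 0 lower at an unadjusted p under 0.05, or 5.88% and 0%, close to the 4.94% and 3.06% of all genes tested, and the median log2 fold change was -0.0018. ELL2, a paralogue of ELL, had no reads in any library. The smallest p after INIP belonged to BDP1, a subunit of the RNA polymerase III factor TFIIIB used at the U6 gene, with a log2 fold change of 0.50 (SE 0.14, edgeR adjusted p = 0.299). COIL, the scaffold of Cajal bodies, stood at -0.82 (SE 0.39, edgeR adjusted p = 0.641) with 11 and 8 reads in R1810A and 17 and 26 reads in WT. INTS6L stood at 0.46 (SE 0.23, edgeR adjusted p = 0.654).

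The snRNA annotation class was summed for comparison, with no test. It includes genes read by RNA polymerase II and U6 genes read by RNA polymerase III. Its 1782 genes took 0.0883% and 0.0403% of the summed counts in R1810A and 0.0109% and 0.0122% in WT, with no overlap, and R1810A replicate 1 was the highest. The 31 factor genes took 0.278% and 0.279% in R1810A and 0.265% and 0.281% in WT, so that the WT libraries lay on either side of the R1810A ones. The 14 Integrator members alone took 0.163% and 0.160% in R1810A and 0.155% and 0.169% in WT. Shares of reads over copies of near-identical snRNA genes depend on how the authors treated reads that match several places, which is not given in the sources used here. With 2 libraries in each group no exact permutation test could go below p = 0.333, and none was made.

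**Figure D4:**
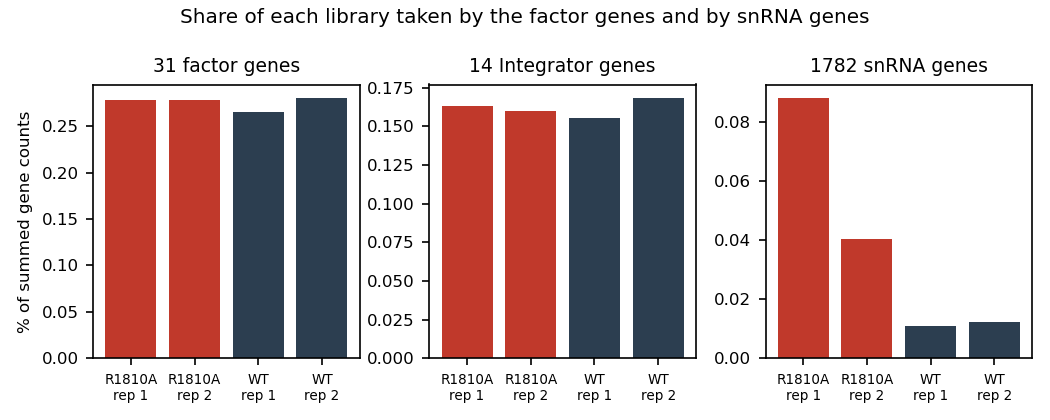
Share of summed gene counts (percent, axes from 0 with separate scales) in the 2 R1810A libraries (red) and the 2 WT libraries (dark) for the 31 factor genes, the 14 Integrator genes and the 1782 genes annotated as snRNA. The snRNA share is 0.0883% and 0.0403% in R1810A against 0.0109% and 0.0122% in WT, while the factor shares overlap.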

How the data were processed

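RNA was measured in 4 libraries, 2 of R1810A and 2 of WT Raji cells. Per the submitters' processing notes the reads were mapped to hg19 by Bowtie. How and with which annotation reads were counted, and whether strand was used, is not given in the sources used here. Per the file headers, the authors deposited unscaled whole-number counts for each gene, and these were tested. The deposited RPKM equalled the count over the deposited gene length and total reads (relative tolerance 1e-04, 0 rows off). It served for levels between genes and, where stated, for values in each group, and was not tested. What the total reads number counts is not stated.

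Identifiers were named with a table of current symbols, then GENCODE 29. The R1810A over WT fit used edgeR 4.0.16 (R 4.3.3) with filterByExpr, TMM and a quasi-likelihood test on group alone, and Benjamini-Hochberg adjustment at 0.05 over 10674 genes. The SE is the absolute log2 fold change over the root of the F statistic, and intervals at 95% use its degrees of freedom. The steps were tested on simulated data with 200 genes changed by far more than any member here. Power at the sizes seen here was not tested. Alternatives were RLE size factors, total reads as library size, no filter, DESeq2 1.42.0, limma-voom (limma 3.58.1), a replicate block and each library left out. All 31 members are named, with the 4 of 35 further pathway genes of smallest p. PPP2R1A, PPP2CA, ELL2 and INTS15 were named after their values were seen. Members and lists were chosen with earlier results of these data known. Gene overlaps and promoters rest on GRCh38, not on the build used for counting.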

Additional observations from a re-analysis of the deposited data

How the results depend on the processing

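No member passed an adjusted p of 0.05 under any of the 10 alternatives. The 38 genes called over the whole table became 85 with no filter, 25 with limma-voom, 77 with the replicate block, 82 without R1810A replicate 2, and from 2 (without WT replicate 2) to 153 (without WT replicate 1) with a library left out. With total reads as library size the median over all genes tested was -0.13. The group medians were then -0.11 for the members, -0.16 for Integrator, -0.29 for SNAPc, -0.11 for the little elongation complex and activators, -0.032 for NABP1 and NABP2, 0.077 for cap binding, export and TOE1 and -0.12 for the further pathway genes. With no filter the Integrator median was -0.054. With a library left out the medians ran from -0.0047 to 0.015 for the members, -0.068 to -0.023 for Integrator, -0.25 to -0.030 for SNAPc, -0.020 to 0.057 for the little elongation complex and activators, -0.013 to 0.18 for NABP1 and NABP2, 0.19 to 0.20 for cap binding, export and TOE1 and -0.032 to 0.051 for the further pathway genes. With total reads 8 members near 0 changed sign: INTS2 (-0.075), INTS12 (-0.12), INTS10 (-0.070), INTS13 (-0.10), INTS3 (-0.10), ICE1 (-0.11), ELL (-0.11) and TOE1 (-0.0082). INTS12 also did with no filter (-0.0081). With a library left out, sign changes were seen in ELL (-0.014 to 0.039), ICE1 (-0.048 to 0.075), ICE2 (-0.20 to 0.060), INTS10 (-0.072 to 0.16), INTS12 (-0.10 to 0.10), INTS13 (-0.020 to 0.050), INTS2 (-0.064 to 0.15), INTS3 (-0.081 to 0.12), INTS5 (-0.19 to 0.0092), INTS6 (-0.22 to 0.026) and TOE1 (-0.24 to 0.52). Without a sign change, the value of INTS7 (-0.23 to -0.023), INTS8 (-0.29 to -0.14), INTS9 (0.12 to 0.30), INTS14 (-0.15 to -0.051), ZNF143 (-0.24 to -0.016), NABP2 (-0.47 to -0.22), NCBP1 (0.17 to 0.34) and PHAX (0.11 to 0.21) moved by over 1.5 times with some library left out. The replicate numbers of the titles are not said to mark a shared batch, and same-numbered libraries did not deviate together (r = -0.040 over all genes tested, which are not independent replicates), so the block is only an alternative. It changed no member's call or direction. In fits with 1 library left out, the lone library is assumed to vary like the other group. The smallest member counts, 21 to 55 reads for SNAPC1, limit its interval.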
